A study of Mus musculus with 6 samples.

Results

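The genes described here encode the proteins of the mitochondrial ribosome and were read from RNA sequencing of NIH3T3 cells, an established line of mouse embryonic fibroblasts. Members were the protein-coding genes of the mouse GENCODE annotation whose symbol begins with Mrpl or Mrps followed by a number. Of 78 such genes 77 had a row among the 24938 genes listed in each library, 48 of them named for the large subunit (Mrpl) and 29 for the small subunit (Mrps), and Mrpl53 is not analysed here. The study has 3 libraries from cells labelled as overexpressing F-CircAE, a fusion circular RNA tied to the leukaemia gene AML1-ETO, and 3 libraries from cells labelled wild type. Both groups are NIH3T3 cells. No empty-vector group is described in the labels, so the overexpression procedure and the circular RNA cannot be told apart, and the labels do not say whether cells were a clone or a pool, or whether the replicates of a group were grown separately. P-values therefore reflect library-to-library spread that could be technical.

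Mitochondrial ribosomes sit at the inner mitochondrial membrane and translate the few mRNAs of the mitochondrial genome, which encode membrane subunits of the respiratory chain and ATP synthase. Their ribosomal RNAs come from mitochondrial DNA, whereas all of their proteins are encoded in the nucleus, made in the cytosol and imported. Part of the proteins descend from those of the bacterial ribosome and the rest have no bacterial counterpart. Of the members, 29 large and 18 small subunit genes were classed as bacterial type, from textbook knowledge. The other 19 large and 11 small subunit genes were classed as specific to mitochondria. This classing has exceptions. Mrpl47, related to bacterial L29, was placed in the mitochondria-specific class, and Mrpl55, which has no bacterial counterpart, in the bacterial class. Mrps36 was also counted as mitochondria-specific. Symbols do not always follow the structure. Mrps30 and Mrps18a are placed in the large subunit in structures of the mammalian ribosome, and Mrps36 is regarded as a component of a mitochondrial dehydrogenase complex.

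Reads recovered from the FPKM values (fragments per kilobase of gene length, scaled to library size) summed to between 16969915 and 21843880 per library. Wild type replicates 1 and 2 were close to counting error, with a chi-square per gene of 1.46, where counting error alone gives 1, against 5.15 to 25.1 in the 14 other pairs of libraries. The 77 members behaved alike, with 1.5 per member in that pair and 3.02 to 20.5 in the others. All 9 fibroblast markers looked at were detected, and their summed level was 1739, 2143 and 2123 FPKM in overexpression libraries and 2456, 2445 and 1937 FPKM in wild type libraries. The defining blood and endothelial markers Ptprc and Pecam1 stayed at or below 0.0117 and 0.406 FPKM in every library, and the other endothelial marker, Cdh5, lay at 0.367 to 0.933 FPKM. Markers of other cell types above 1 FPKM were Cd68 (blood, 4.32 to 6.34 FPKM), Cdh1 (epithelium, 2.19 to 2.82 FPKM), Des (muscle, 1.84 to 2.33 FPKM) and Lpl (fat, 26.8 to 30.3 FPKM). Over all 12222 genes tested with limma on log2(FPKM + 1), 0 passed a Benjamini-Hochberg adjusted p of 0.05. An unadjusted p under 0.05 was seen for 632 (350 higher, 282 lower). Limma-voom on the recovered reads tested 14473 genes under another filter and also called 0, with 774 under 0.05. The split into higher and lower genes moved with scaling. It was 103 higher and 643 lower when FPKM sums were made equal, and 194 and 426 when upper quartiles were. With voom on reads per library total it was 163 and 611 of its 14473 genes.

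All 77 members were expressed and passed the filter of more than 1 FPKM in at least 3 libraries. Their values ran from 3.24 to 142 FPKM, each resting on 145 to 2447 reads per library. Summed over the members, the level was 2121, 1977 and 1873 FPKM in overexpression replicates 1, 2 and 3 and 1745, 1782 and 1942 FPKM in wild type replicates 1, 2 and 3. Wild type replicate 3 lay above overexpression replicate 3, so the groups overlapped. As a share of recovered reads the members took 0.376%, 0.344% and 0.333% with overexpression and 0.317%, 0.32% and 0.349% in wild type. In bulk RNA, a change in the mix of cells and a change in RNA per cell cannot be told apart.

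**Figure D1:**
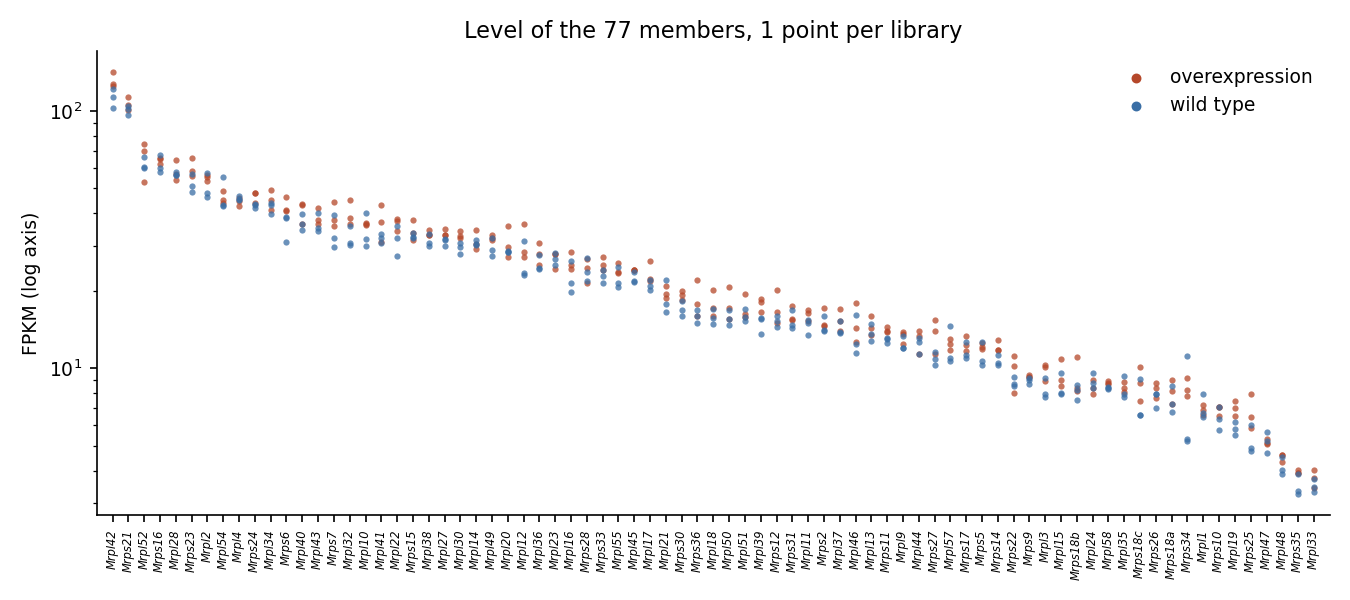
Level of each of the 77 members in FPKM on a log axis, ordered by the mean over the 6 libraries, with 1 point per library (overexpression red, wild type blue). Mrpl42 and Mrps21 stand at the top near 100 FPKM and Mrpl33, at 3.3 to 4.01 FPKM, at the bottom.

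Levels spread over more than an order of magnitude within each subunit. Mrpl42, a large subunit protein specific to mitochondria, held 142, 127 and 125 FPKM in overexpression libraries and 103, 113 and 122 FPKM in wild type libraries. Mrps21, the small subunit relative of bacterial S21, held 113, 106 and 101 FPKM with overexpression and 96.5, 102 and 105 FPKM in wild type. The ranges of these genes overlapped each other, and both lay above every other member in each library. Next among large subunit genes by mean level came Mrpl52, Mrpl28, Mrpl2 and Mrpl54, and among small subunit genes Mrps16, Mrps23, Mrps24 and Mrps6. At the low end were Mrpl33, the relative of bacterial L33, with 4.01, 3.41 and 3.76 FPKM in overexpression libraries and 3.3, 3.46 and 3.72 FPKM in wild type libraries, Mrps35 and Mrpl48.

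This order depends on the gene length that the authors divided by. For 57 members the annotated exon length gave whole reads in every library, and for 20 a shorter or longer length had to be searched for. Mrpl42 gave whole reads at a length of 666 bases, with 1407 to 1823 reads per library. Mrpl30, with more reads (1840 to 2261), stood at 27.9 to 34.1 FPKM because its length was 3226 bases. Mrpl33, the lowest member by FPKM, had a length of 7326 bases and 494 to 542 reads. Comparisons between libraries of the same gene do not depend on this length.

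With overexpression most members had estimates slightly above 0. The log2 fold change was above 0 for 72 of 77 members (93.5%), where 53.2% of all genes tested were above 0, and its median was 0.12, where that of all genes was 0.01. No member passed, with 0 of 77 below an adjusted p of 0.05 (limma, smallest adjusted p = 0.842), where 0.0% of all genes did. At an unadjusted p under 0.05 there were 11 members, all higher with overexpression, which is 14.3% of the members, where 2.86% of all genes tested were called in that direction. No member was called lower, where 2.31% of all genes were. Groups did not overlap for 15 members (19.5%), each with the overexpression libraries above the wild type ones, where the background was 6.81% higher and 4.69% lower. Ratios of mean FPKM ran from 0.948 for Mrpl24 to 1.29 for Mrps25. The 95% interval of the fold in FPKM + 1 excluded a 1.5-fold change in either direction for 74 of 77 members, the exceptions being Mrpl12, Mrps25 and Mrps34, and excluded a 2-fold change for all 77.

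**Figure D2:**
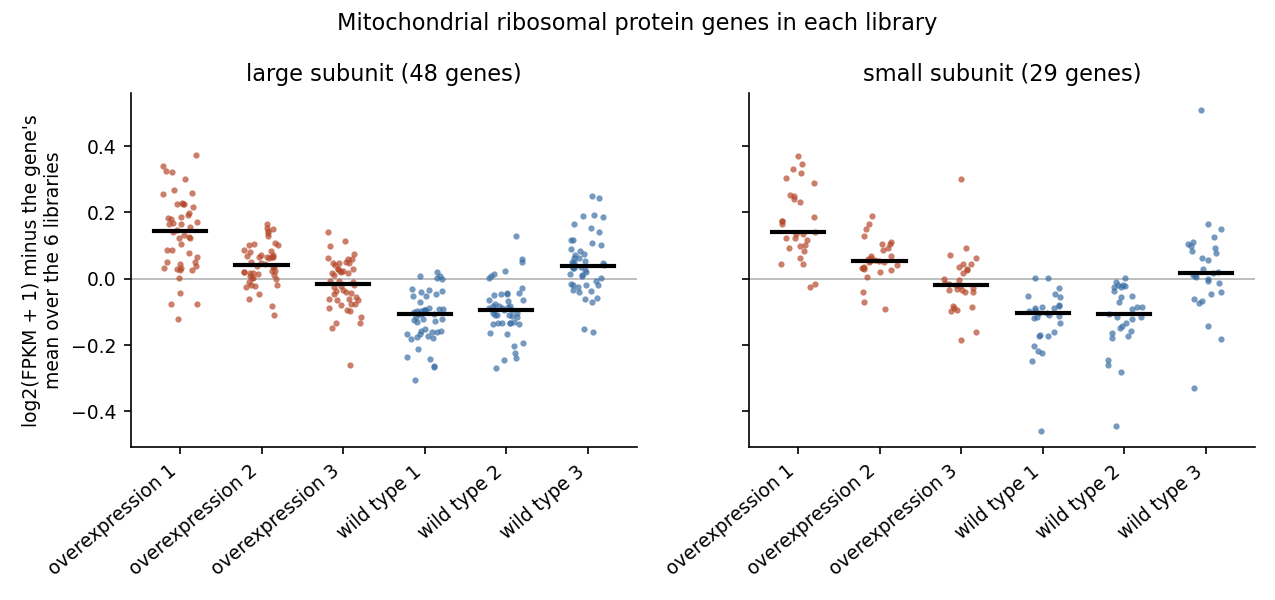
Log2(FPKM + 1) of each member minus its own mean over the 6 libraries, by library, for large subunit genes (left) and small subunit genes (right); points are genes, black bars medians, overexpression red and wild type blue. Both subunits share 1 pattern, with overexpression replicate 1 highest, wild type replicates 1 and 2 lowest, and wild type replicate 3 among the overexpression libraries.

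The libraries of a group did not move together. Averaged over the members, the level relative to each gene's mean was 0.15, 0.05 and -0.02 on the log2 scale in overexpression replicates 1, 2 and 3 and -0.12, -0.1 and 0.04 in wild type replicates 1, 2 and 3. Overexpression replicate 1 was the highest library for 48 of 77 members (62.3%, against 26.2% of all genes tested). Wild type replicate 1 was the lowest for 37 members (48.1%, against 17.9% of all genes). Wild type replicate 2 was the lowest for 23 (29.9%, against 14.8%). Wild type replicate 3 exceeded both other wild type libraries in 60 members (77.9%, against 43.6% of all genes). All overexpression libraries exceeded wild type replicates 1 and 2 in 49 members (63.6%, against 21.8% of all genes), but all of them exceeded wild type replicate 3 in 21 members (27.3%, against 25.7%). The summed fibroblast markers ran the other way, lowest in overexpression replicate 1 and wild type replicate 3 and highest in wild type replicates 1 and 2, and their part in the result was not tested. Col1a1, Col1a2, Col3a1, Pdgfra, Pdgfrb and Fn1 were each lowest of their group in those libraries. Vim, S100a4 and Thy1 did not share that order, and Vim held 567, 601 and 665 FPKM with overexpression and 563, 560.3 and 606 FPKM in wild type.

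Counts of members at an unadjusted p under 0.05 moved with single libraries. Without overexpression replicate 1, 2 or 3 there were 2, 2 and 19 members, where 2.62%, 1.51% and 4.77% of all genes tested were higher. Without wild type replicate 1, 2 or 3 there were 1, 2 and 27 members, where 0.916%, 1.11% and 8.71% of all genes were higher. Averaging wild type replicates 1 and 2 to 1 library left 2 members, where 0.908% of all genes were higher. Weighting libraries by estimated array quality, which gave overexpression replicate 1 a weight of 0.278 and wild type replicate 3 a weight of 0.236, called 29 members at an adjusted p of 0.05, while it called 18.3% of all genes tested. With those weights and wild type replicates 1 and 2 averaged the number was 0, and 0.0% of all genes were called. The median log2 fold change of the members stayed above 0 in each of these fits, between 0.07 without overexpression replicate 1 and 0.15 without wild type replicate 3.

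Large subunit genes with the smallest p were Mrpl19, Mrpl39, Mrpl32, Mrpl30, Mrpl3 and Mrpl42, for which the limma adjusted p was 0.842. Mrpl19 (ENSMUSG00000030045, chromosome 6, 81957851 to 81965958, mm10) encodes the relative of bacterial L19, a protein at the interface of the subunits. It held 7.49, 6.51 and 7 FPKM in overexpression libraries and 5.52, 5.82 and 6.2 FPKM in wild type libraries. Every overexpression value lay above every wild type value, with a log2 fold change of 0.22 ± 0.07 (SE). Exons of Gcfc2 on the other strand cover 1962 of its bases, and no source used here says whether reads were counted by strand.

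Mrpl39 (chromosome 16, 84717576 to 84735742) encodes a protein that resembles threonyl-tRNA synthetase and is specific to mitochondrial ribosomes. Its level was 18.6, 18.1 and 16.5 FPKM with overexpression and 13.6, 15.7 and 15.6 FPKM in wild type. The groups did not overlap, and the log2 fold change was 0.23 ± 0.08 (SE). Mrpl32 (chromosome 13, 14608184 to 14613165), whose product is matured by the m-AAA protease before it joins the ribosome, had 44.9, 38.4 and 36.3 FPKM with overexpression and 30.7, 30.1 and 35.8 FPKM in wild type. Overexpression replicate 3 and wild type replicate 3 nearly met, and the log2 fold change was 0.3 ± 0.1 (SE). Mrpl30 (chromosome 1, 37890477 to 37898535), the relative of bacterial L30, had 34.1, 32.6 and 32.2 FPKM with overexpression and 27.9, 29.7 and 30.7 FPKM in wild type. Its groups did not overlap, and its log2 fold change of 0.16 ± 0.06 (SE) was among the more precise.

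The promoters of these 3 genes are shown because they have the smallest p among members with a promoter in RefSeq. By symbol, 68 of 77 members were matched. Each of the 3 holds a motif of NRF1, an activator of nuclear genes for mitochondrial proteins. The motif was not a ground for the choice. Other members at an unadjusted p under 0.05 with a promoter were Mrpl3, Mrpl42, Mrps14, Mrps27, Mrps25, Mrps30 and Mrps6. None of their promoters held the motif. Sequences are from RefSeq, GRCm38.p6, the mm10 assembly, written 5′ to 3′ on the gene's strand, from 250 bases before to 50 bases after a start site. Capitals mark the NRF1 motif on either strand, 10 letters of which the fifth may be any base. The motif began 125 bases before the start in Mrpl39 (chr16:84735195-84735494, minus strand), 87 bases before it in Mrpl32 (chr13:14612988-14613287, minus strand) and 83 bases before it in Mrpl30 (chr1:37890227-37890526, plus strand).
Mrpl39: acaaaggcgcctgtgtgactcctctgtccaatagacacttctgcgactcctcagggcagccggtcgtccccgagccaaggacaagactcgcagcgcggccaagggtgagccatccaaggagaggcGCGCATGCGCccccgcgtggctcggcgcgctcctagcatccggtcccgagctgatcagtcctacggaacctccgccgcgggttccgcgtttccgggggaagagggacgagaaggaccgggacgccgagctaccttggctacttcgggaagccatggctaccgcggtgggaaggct
Mrpl32: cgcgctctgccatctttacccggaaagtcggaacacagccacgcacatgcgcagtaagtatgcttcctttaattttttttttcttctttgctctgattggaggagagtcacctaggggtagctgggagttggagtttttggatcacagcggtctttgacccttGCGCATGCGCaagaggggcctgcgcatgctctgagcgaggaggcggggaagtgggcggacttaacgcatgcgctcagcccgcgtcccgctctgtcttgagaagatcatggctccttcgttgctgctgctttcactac
Mrpl30: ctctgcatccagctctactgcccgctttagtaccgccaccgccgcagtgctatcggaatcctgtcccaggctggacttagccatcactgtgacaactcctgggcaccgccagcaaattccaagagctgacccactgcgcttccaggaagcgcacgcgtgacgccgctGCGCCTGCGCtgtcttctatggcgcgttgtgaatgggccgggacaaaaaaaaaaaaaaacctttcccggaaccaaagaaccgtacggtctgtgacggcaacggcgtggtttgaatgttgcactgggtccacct
Over the members, the NRF1 motif was found in 13 of 68 promoters (19.1%), against 11.6% of the 8347 promoters of protein-coding genes tested and 4.78% of all 27025 promoters listed, both strands searched. It was in 10 of 42 large subunit promoters (23.8%) and 3 of 26 small subunit promoters (11.5%). CCGGAAG, the core bound by ETS factors such as GABPA, was found on either strand in 23 of 68 member promoters (33.8%), against 20.2% and 9.12%. In 0 member promoters did matches of these motifs overlap. Matches describe the windows and show no binding, and no test was made of these shares.

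A further feature of these genes is the company of their start sites. For 18 of 77 members (23.4%) a protein-coding gene on the other strand starts within 1000 bases upstream, against 11.3% of 10461 protein-coding genes tested. Mrpl30 and Mitd1 start 66 bases apart, Mrpl32 and the proteasome gene Psma2 75 bases apart, and Mrps12 and Sars2, which encodes the mitochondrial seryl-tRNA synthetase, 172 bases apart. Members lie on 17 chromosomes, with 11 on chromosome 11 and 8 on chromosome 17.

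Mrpl3 (chromosome 9, 105053239 to 105079888), related to bacterial L3, which lies near the peptidyl transferase centre, had 10.3, 10.1 and 8.93 FPKM with overexpression and 7.93, 7.72 and 9.15 FPKM in wild type. Wild type replicate 3 lay above overexpression replicate 3, and the log2 fold change was 0.22 ± 0.08 (SE). For Mrpl42 (chromosome 10, 95480805 to 95501940), whose values stand above, the lowest overexpression library exceeded the highest wild type one by little, and the log2 fold change was 0.22 ± 0.09 (SE). The most abundant other large subunit genes had smaller estimates. Mrpl2 (related to bacterial L2, a core protein of the catalytic centre) had 56.6, 55.3 and 53.3 FPKM with overexpression and 46.4, 47.9 and 57.2 FPKM in wild type, with a log2 fold change of 0.13 ± 0.09 (SE). Wild type replicate 3 was the highest of its 6 libraries. Mrpl52 had 74.6, 70.2 and 53 FPKM against 59.8, 66.5 and 60.6 FPKM, a log2 fold change of 0.07 ± 0.13 (SE) on groups that overlapped. Mrpl28 and Mrpl54 stood at 0.03 ± 0.08 and -0.02 ± 0.11 (SE), and Mrpl54 was highest in wild type replicate 3, at 55.2 FPKM. At the low end, Mrpl33 and Mrpl48 had log2 fold changes of 0.07 ± 0.08 and 0.1 ± 0.07 (SE).

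In the small subunit Mrps14, Mrps27, Mrps25, Mrps30, Mrps6 and Mrps11 had the smallest p, and the limma adjusted p of each was again 0.842. Mrps14 (chromosome 1, 160195215 to 160202170), related to bacterial S14, held 11.8, 12.9 and 11.8 FPKM in overexpression libraries and 10.5, 10.3 and 11.3 FPKM in wild type libraries. Its groups did not overlap, with a log2 fold change of 0.17 ± 0.06 (SE). Mrps27 (chromosome 13, 99344786 to 99415562), a pentatricopeptide repeat protein that binds RNA, held 15.4, 14 and 11.4 FPKM with overexpression and 10.3, 10.9 and 11.6 FPKM in wild type. Overexpression replicate 3 lay within the wild type range, and the log2 fold change was 0.28 ± 0.11 (SE). Mrps25 (chromosome 6, 92169525 to 92184033), specific to mitochondria, had the largest ratio of means, with 7.94, 6.44 and 5.85 FPKM with overexpression and 4.92, 4.78 and 6.02 FPKM in wild type. Its groups overlapped at replicate 3, its log2 fold change was 0.31 ± 0.12 (SE), and 4590 of its exon bases overlap Nr2c2 on the other strand.

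Mrps30 (chromosome 13, 118378381 to 118387252) had 19.9, 19.3 and 18.4 FPKM with overexpression and 15.9, 16.9 and 18.2 FPKM in wild type. No value overlapped, although the replicates numbered 3 were close, and the log2 fold change was 0.17 ± 0.07 (SE). Mrps6 (chromosome 16, 92058270 to 92112227), related to bacterial S6, had 46.5, 40.7 and 41.2 FPKM with overexpression and 38.4, 38.9 and 31 FPKM in wild type. Unlike most members it was lowest in wild type replicate 3, and its log2 fold change was 0.24 ± 0.1 (SE). Its exons overlap those of Slc5a3 on the same strand. Mrps11 (chromosome 7, 78783119 to 78792989), which lies near the mRNA path in its bacterial relative, held 14.5, 13.8 and 13.9 FPKM with overexpression and 12.5, 13.1 and 13 FPKM in wild type. The groups did not overlap and the spread was small, with 14.1 ± 0.386 and 12.9 ± 0.312 FPKM (SD, n = 3 each) and a log2 fold change of 0.12 ± 0.05 (SE), while 173 bases of its exons overlap those of Mrpl46 on the other strand.

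Among abundant small subunit genes, Mrps23 had a log2 fold change of 0.2 ± 0.09, Mrps24 of 0.12 ± 0.06, Mrps21 of 0.07 ± 0.07 and Mrps16 of 0.06 ± 0.07 (SE). Mrps24, related to bacterial S3 at the mRNA entry, had groups that did not overlap, at 47.9, 48.2 and 43.8 FPKM with overexpression and 43.1, 42.1 and 43.5 FPKM in wild type. Mrps35, the lowest small subunit gene, likewise did not overlap, at 3.91, 3.9 and 4.02 FPKM against 3.33, 3.24 and 3.89 FPKM. Mrps34, a protein needed for small subunit stability, was singled out after its values were seen. It had 9.18, 8.24 and 7.78 FPKM with overexpression and 5.23, 5.29 and 11.2 FPKM in wild type. Wild type replicate 3 exceeded every other library, the log2 fold change was 0.26 ± 0.26 (SE), and its exons overlap both Nme3 on the same strand and Mapk8ip3 on the other.

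**Figure D3:**
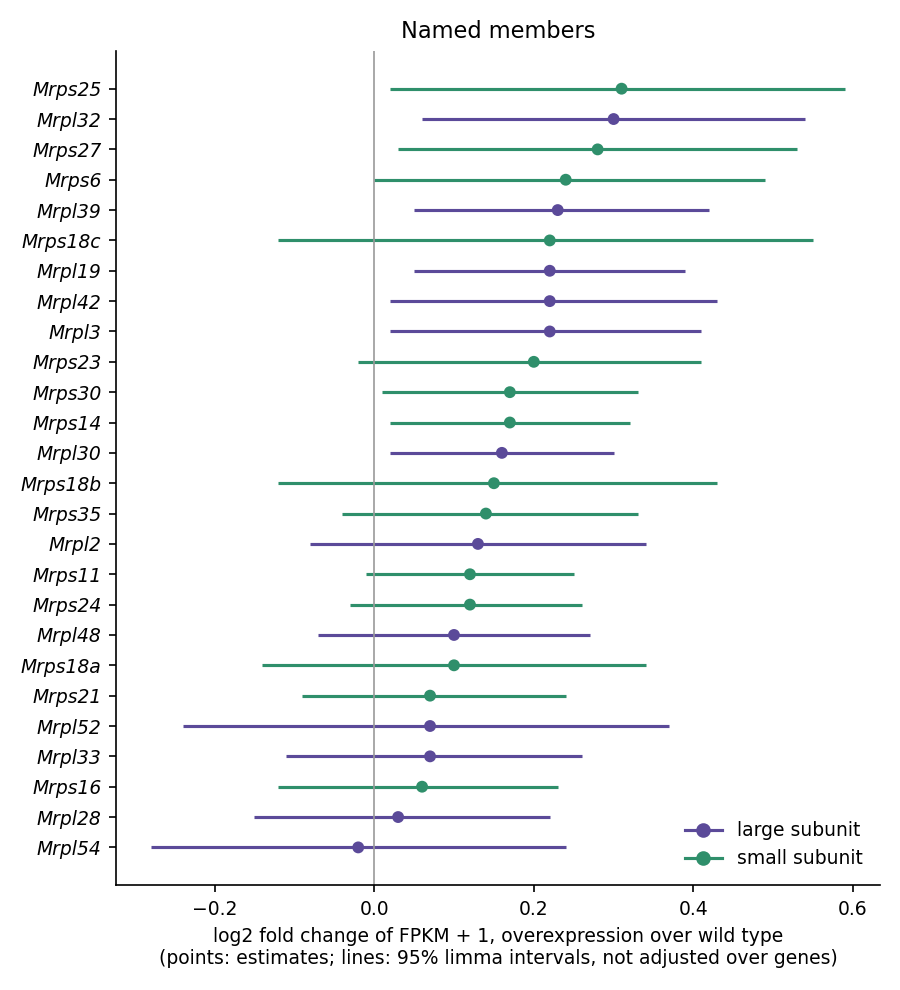
Log2 fold change of FPKM + 1, overexpression over wild type, for the 26 members named by the rule; points are estimates, lines 95% limma intervals not adjusted over genes, purple large and green small subunit. Estimates run from -0.02 for Mrpl54 to 0.31 for Mrps25, and no member passed after adjustment.

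Mammals have 3 relatives of bacterial S18, encoded by Mrps18a, Mrps18b and Mrps18c, which occupy different places in the ribosome. Mrps18a (chromosome 17, 46110986 to 46128910), the copy in the large subunit, held 9.01, 8.15 and 7.27 FPKM with overexpression and 7.28, 6.78 and 8.51 FPKM in wild type. Mrps18b (chromosome 17, 35910379 to 35916389) held 11.1, 8.16 and 8.38 FPKM with overexpression and 8.26, 7.53 and 8.6 FPKM in wild type. Mrps18c (chromosome 5, 100798627 to 100804471), the copy nearest to bacterial S18 in place, held 8.78, 7.47 and 10.1 FPKM with overexpression and 6.59, 6.61 and 9.12 FPKM in wild type. The 3 genes thus had like levels, and in each the groups overlapped. Their log2 fold changes were 0.1 ± 0.1, 0.15 ± 0.12 and 0.22 ± 0.14 (SE), with limma adjusted p of 0.856, 0.847 and 0.843.

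Some further members, chosen after their values were seen, are given by their place in the ribosome, with no comparison between places. In the stalk that recruits translation factors, Mrpl12 had 36.5, 28.4 and 27.1 FPKM with overexpression and 23.1, 23.4 and 31.2 FPKM in wild type, a log2 fold change of 0.24 ± 0.15 (SE). Its partner Mrpl10 and the stalk base protein Mrpl11 had log2 fold changes of 0.11 ± 0.11 and 0.14 ± 0.07 (SE). Around the exit of the nascent chain, Mrpl22 stood at 0.21 ± 0.1 (SE), Mrpl45, which tethers the ribosome to the inner membrane, at 0.1 ± 0.06 (SE), Mrpl24 at -0.07 ± 0.07 (SE) and Mrpl23 at 0 ± 0.08 (SE). In the central protuberance, Mrpl38, Mrpl40 and Mrpl46 had 0.09 ± 0.06, 0.15 ± 0.09 and 0.16 ± 0.16 (SE). Mrpl58, a peptidyl-tRNA hydrolase built into the same region, had 8.74, 8.69 and 8.89 FPKM with overexpression and 8.27, 8.39 and 8.45 FPKM in wild type. Its groups did not overlap although the log2 fold change was 0.06 ± 0.05 (SE). Mrps12, related to the bacterial decoding protein S12, stood at 0.16 ± 0.11 (SE).

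Members classed as bacterial type and members classed as specific to mitochondria had similar estimates. The classing is the one given above, so Mrpl47, with an estimate below 0, counts as mitochondria-specific and Mrpl55 as bacterial type. Estimates were above 0 for 44 of 47 bacterial-type genes (median 0.11 on the log2 scale) and for 28 of 30 mitochondria-specific genes (median 0.13). Groups did not overlap, with overexpression higher, for 9 (19.1%) of the bacterial-type genes and 6 (20%) of the others. Over all genes tested 53.2% lay above 0 and 6.81% had groups that did not overlap in that direction.

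Large and small subunit genes were then compared within each library. The mean log2(FPKM + 1) over large subunit genes was 4.568, 4.475 and 4.414 in overexpression libraries and 4.315, 4.339 and 4.477 in wild type libraries. Over small subunit genes it was 4.26, 4.149 and 4.079 with overexpression and 3.966, 3.975 and 4.117 in wild type. In both subunits overexpression replicate 1 was highest and wild type replicates 1 and 2 were lowest. Wild type replicate 3 lay just above overexpression replicate 2 in the large subunit and below it in the small subunit. Large minus small was 0.308, 0.326 and 0.335 with overexpression and 0.349, 0.364 and 0.359 in wild type, that is 0.323 ± 0.0137 and 0.357 ± 0.00764 (SD, n = 3 each). No overexpression library reached a wild type one, and the difference of -0.034 exceeded both SDs, but no test is given for a score over chosen genes. With subunits taken from structure, large minus small was 0.268 ± 0.00781 with overexpression and 0.299 ± 0.00808 in wild type (SD, n = 3 each). The difference shrank to -0.008 when the 27 members with an exon overlap on the other strand were left out. Summed FPKM gave a large to small ratio of 1.95, 1.96 and 1.95 with overexpression and 1.96, 1.96 and 2 in wild type.

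**Figure D4:**
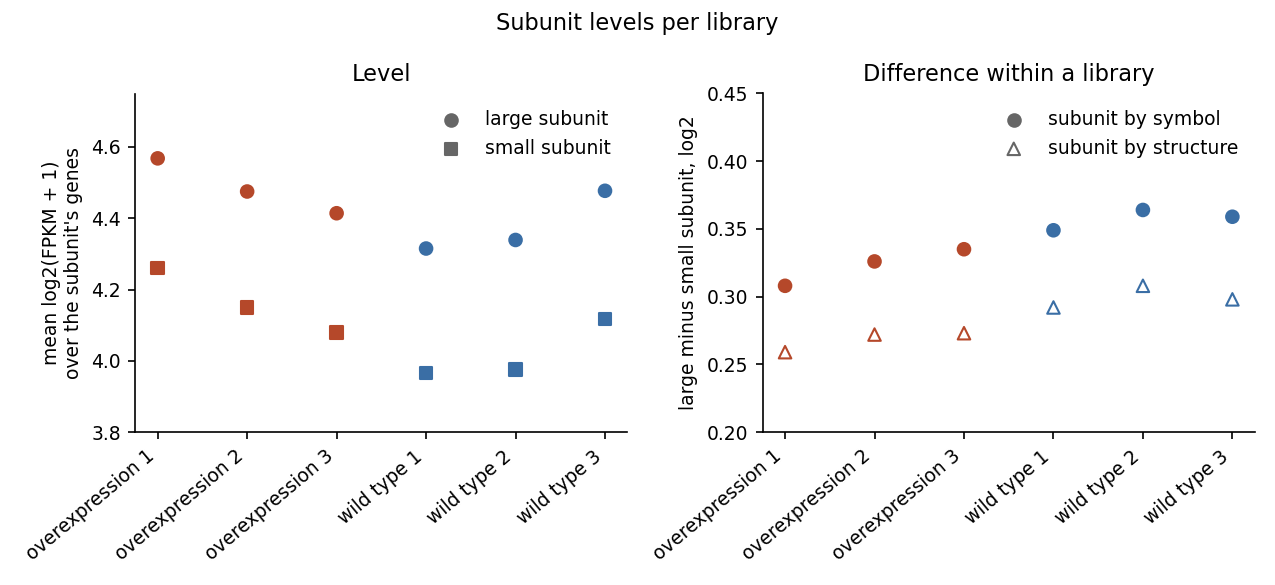
Left, mean log2(FPKM + 1) over large subunit genes (circles) and small subunit genes (squares) in each library; right, their difference within the library, with subunits by symbol (filled) or by structure (open triangles); overexpression red, wild type blue. Levels overlap between groups, while the difference is 0.308 to 0.335 with overexpression and 0.349 to 0.364 in wild type.

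By count, all 29 small subunit genes lay above 0, their median log2 fold change being 0.13, and 5 (17.2%) had an unadjusted p under 0.05 in the higher direction. Of 48 large subunit genes 43 were above 0, with a median of 0.1, and 6 (12.5%) had an unadjusted p under 0.05, again higher. Over all genes tested 53.2% lay above 0, and 2.86% had such a p in the higher direction. The 5 members with an estimate below 0 were Mrpl24, Mrpl4, Mrpl1, Mrpl54 and Mrpl47, of which the lowest estimate was that of Mrpl24 at -0.07 ± 0.07 (SE). Mrpl4, an abundant protein related to bacterial L4, had 42.7, 44.5 and 46 FPKM with overexpression and 45.3, 46.7 and 45.4 FPKM in wild type. Its groups overlapped within a narrow range.

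Other parts of the mitochondrial translation system were read from lists. The ribosomal RNA genes of the mitochondrial genome varied widely. mt-Rnr1, the small subunit RNA, had 371, 534 and 423 FPKM with overexpression and 320, 332 and 405 FPKM in wild type, a log2 fold change of 0.32 ± 0.15 (SE; limma adjusted p = 0.842). mt-Rnr2, the large subunit RNA, had 201, 354 and 287 FPKM with overexpression and 166, 169 and 311 FPKM in wild type, a log2 fold change of 0.41 ± 0.3 (SE; limma adjusted p = 0.843). For both, overexpression replicate 2 was highest and overexpression replicate 1 lowest in its group, unlike the protein genes, which were highest in overexpression replicate 1.

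Among 5 mitochondrial ribosomal proteins with other symbols, 4 lay above 0 and the median was 0.03 on the log2 scale. Chchd1, a small subunit protein, had 93.6, 81.4 and 75.6 FPKM with overexpression and 69.6, 65.5 and 79.4 FPKM in wild type (log2 fold change 0.22 ± 0.11 SE; limma adjusted p = 0.842), and Ptcd3, which carries pentatricopeptide repeats, stood at 0.09 ± 0.11 (SE). Of 28 tested assembly factors 18 were above 0 with a median of 0.04, and 0 passed, while 3 (10.7%) had an unadjusted p under 0.05, all higher. Over all genes tested 53.2% lay above 0 and 2.86% had such a p. The 3 genes were Mrm3, a methyltransferase of the large subunit RNA, Ngrn, which binds that RNA, and Tfb1m, which methylates the small subunit RNA. Mrm3 had 9.86, 9.61 and 8.77 FPKM with overexpression and 8.54, 7.94 and 7.67 FPKM in wild type, a log2 fold change of 0.2 ± 0.07 (SE; limma adjusted p = 0.842). Ngrn and Tfb1m stood at 0.17 ± 0.06 and 0.22 ± 0.09 (SE), and in all 3 genes the groups did not overlap. Among the 28 assembly factors 4 (14.3%) had groups that did not overlap with overexpression higher and 1 with overexpression lower. Over all genes tested 6.81% did so in the higher and 4.69% in the lower direction. The lower one was Mettl15, a methyltransferase of the small subunit RNA, with 4.91, 4.37 and 4.57 FPKM with overexpression and 5.26, 5.15 and 5.12 FPKM in wild type, a log2 fold change of -0.14 ± 0.06 (SE; limma adjusted p = 0.842).

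Of 19 tested mitochondrial translation factors 15 had estimates above 0, with a median of 0.04 and 0 that passed. Slirp and Taco1, which act on mitochondrial mRNA and on its translation, had the smallest p, with log2 fold changes of 0.25 ± 0.12 and 0.2 ± 0.11 (SE; limma adjusted p = 0.842 each). Of 10 genes for transcription and copying of mitochondrial DNA 7 were above 0 with a median of 0.03, and Polg2 and Tefm, with the smallest p, stood at -0.11 ± 0.08 and 0.09 ± 0.09 (SE). Among 9 tested regulators of nuclear genes for mitochondrial proteins 4 were above 0. Gabpa had 10.9, 12.7 and 10.9 FPKM with overexpression and 10.6, 11.5 and 10.6 FPKM in wild type (limma adjusted p = 0.869), Esrra stood at 0.1 ± 0.12 (SE), and Nrf1 had 3.12, 2.79 and 2.77 FPKM against 2.83, 2.83 and 2.68 FPKM.

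Cytosolic ribosomal protein genes, taken by symbol (Rpl, Rps or Rplp followed by a number, without kinases), were set beside the members. The symbol rule also took in Rps19bp1 and Rpl7l1, which do not encode proteins of the ribosome itself. Of 83 tested, 82 lay above 0, the median was 0.11 on the log2 scale, 0 passed, and 2 (2.41%) had an unadjusted p under 0.05, namely Rplp2 and Rpl37, both higher, where 2.86% of all genes tested were. Several traits of the members were shared. Groups did not overlap, with overexpression higher, for 18 cytosolic genes (21.7%), against 19.5% of members and 6.81% of all genes. Wild type replicate 3 exceeded both other wild type libraries in 74.7%, against 77.9% of members and 43.6% of all genes. All overexpression libraries exceeded wild type replicates 1 and 2 in 61.4%, against 63.6% of members and 21.8% of all genes. The share at an unadjusted p under 0.05 in the higher direction differed, at 2.41% against 14.3% of members. The highest library differed too. Cytosolic genes were highest in overexpression replicate 3 for 59 of 83 and in overexpression replicate 1 for 7. The mitochondrial genes were highest in overexpression replicate 3 for 6 of 77 and in overexpression replicate 1 for 48. No test was made of these differences.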

How the data were processed

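RNA from 3 overexpression and 3 wild type libraries of NIH3T3 cells was sequenced by the authors with NEBNext Ultra libraries on an Illumina HiSeq, per the labels' protocols. Deposited values are FPKM per Ensembl gene, per the file headers. The build was mm10, per the submitters' processing notes; the aligner, counting program, strand setting and annotation were not given in the sources used here. Groups came from the genotype labels.

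Symbols, positions and exon lengths came from GENCODE M21 (24816 of 24938 IDs matched). Whole reads were recovered from FPKM steps, using the exon length for 19832 genes and a searched length for 5106, within 0.01 reads plus a relative 1e-08. On simulated data every read was recovered for 99.5% of 3000 genes. Among the 589 of them given a wrong annotated length it was 97.6%. Recovered reads served for depth and for limma-voom (at least 10 reads in 3 libraries, total reads as library size) and cover counting error only, since amplified reads are not independent molecules. The test was limma 3.58.1 in R 4.3.3 (trend, robust, group as the only term) on log2(FPKM + 1) over all 12222 genes above 1 FPKM in at least 3 libraries, with Benjamini-Hochberg adjustment at 0.05, and was also run on simulated data. Fold changes on this scale understate those of low genes. Alternatives were other pseudocounts, filters, scalings, library weights, a replicate block and leaving out each library.

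Members and lists were chosen with earlier results of these data known. The rule for named members took the 6 smallest p and the 5 highest levels in each subunit, the 3 lowest levels, the Mrps18 genes and every unadjusted p under 0.05; Mrps34, Mrpl4, Tfb1m, Mettl15, Nrf1 and the genes given by place in the ribosome were added after values were seen.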

Additional observations from a re-analysis of the deposited data

How the results depend on the processing

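Of 77 members, 0 passed an adjusted p of 0.05 under each setting run except array weights, which called 29 members and 2241 of all genes; leaving out 1 library at a time gave 0 members and 0 to 2 of all genes. The members at an unadjusted p under 0.05 numbered 11 and moved most. In the main fit 6 of them were among the 50 members without an exon overlap on the other strand. That is 12%, against 14.3% of all members and 2.86% of all genes higher. Over all members the number was 5 after upper quartile scaling (1.59% of all genes then higher) and 3 at an equal FPKM sum (0.843%). It was 51 with array weights (50 higher and 1 lower, 21.9% of all genes higher). With wild type replicates 1 and 2 averaged it was 2 (0.908%), and 4 with array weights on those averaged libraries (1.91%). It was 7 with voom on recovered reads (1.13%), and 1 to 27 when 1 library was left out. With the replicate number as a block there were 5 (1.73% of all genes then higher). Deviations from the group mean of libraries with equal numbers correlated at -0.102, 0.0833 and 0.00253 for numbers 1, 2 and 3. No overexpression library correlated best with the wild type library of its own number. With 3 libraries per group these values cannot tell whether libraries of equal number were handled together. Members whose groups did not overlap numbered 15 (19.5%, each higher), where 6.81% of all genes were higher and 4.69% lower. They numbered 7 at an equal FPKM sum, and 16 to 49 when 1 library was left out, where fewer libraries make overlap rarer. Shares over all genes are not given for those settings, so these counts are not read as a result about the members. Medians of the log2 fold change were 0.06 to 0.15 for large and 0.1 to 0.16 for small subunit genes without 1 library. At an equal FPKM sum, 63 of 77 members were above 0, with a median of 0.05 where all genes had -0.05, and with voom 67 were, with 0.09 where all genes had -0.03. The large minus small difference was -0.02 with a pseudocount of 5 and -0.008 without the members overlapping exons on the other strand, against -0.034, and -0.04 to -0.027 without 1 library. Signs changed for members near 0. Mrpl28 was at -0.02 after quantile normalization, -0.03 at an equal FPKM sum, -0.01 with array weights, -0.00 with voom and -0.04 to 0.09 without 1 library. Mrps16 was at -0.01 and Mrps21 at -0.01 after quantile normalization, and Mrps16 at -0.01 at an equal FPKM sum. Mrpl54 was at 0.15 with array weights and -0.08 to 0.1 without 1 library, Mrpl52 at -0.03 to 0.21 without 1 library, and Mrpl33 at -0.02 with array weights on averaged libraries. The cause of these shifts was not tested. Subunits by structure, the settings with averaged libraries weighted, and the set without overlapping members were chosen after seeing the data.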

Other observations

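Processed pseudogenes of the members were low. Of 5 listed, Mrpl23-ps1 had the highest level, at 1.83, 1.6 and 2.12 FPKM with overexpression and 2.275, 1.615 and 1.8 FPKM in wild type, and Mrps36-ps2 was at 0.338 FPKM or less in every library. Their parent genes Mrpl23 and Mrps36 stood at 24.4 to 28.1 and 15 to 22.1 FPKM.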
